A study of Rattus norvegicus with 4 samples.

Results

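Osteopontin (Spp1), the hyaluronan and osteopontin receptor Cd44, galectin-3 (Lgals3) and the glycoprotein Gpnmb were followed across rat trigeminal nerve tissue, as 4 genes of the 32623 in the deposited table. They were chosen by measured values of these samples, namely their UMI sums per capture area and their correlations over spots with neuron, macrophage and Schwann cell genes, so those values are given below as a description and carry no test. All 4 symbols were found once each, with the identifiers ENSRNOG00000043451 (Spp1), ENSRNOG00000006094 (Cd44), ENSRNOG00000010645 (Lgals3) and ENSRNOG00000008816 (Gpnmb). Spatial transcriptomics on Visium slides counted unique molecular identifiers (UMIs) per gene at barcoded spots, each wide enough to cover several cells. The TN group (trigeminal neuralgia) held 3 capture areas, TN1, TN2 and TN3, each with the semilunar ganglion, the nerve root and the proximal branches of 1 adult male Sprague–Dawley rat, taken on the diseased side. The model was mechanical compression of the trigeminal root on that side. The HC group (healthy control) held 1 capture area with tissue of 2 animals, which the barcodes do not tell apart, so HC counts as 1 sample. According to the labels every animal was wild type, and no drug or second allele was named. Control animals are described as sham-operated in the methods, but in the series description the HC tissue is the healthy side of compressed animals, in which case both groups hold tissue of the same rats.

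Osteopontin is a secreted phosphoprotein that binds integrins and Cd44 and is made by bone cells, activated macrophages and some sensory and motor neurons. Cd44 spans the membrane, takes hyaluronan as its main ligand, and links the cell surface to the cytoskeleton through proteins of the ezrin family. Galectin-3 is a lectin that binds galactose-containing sugars inside and outside the cell and is abundant in phagocytes and in Schwann cells that clear myelin debris. Gpnmb is a transmembrane glycoprotein of lysosomes and melanosomes that is known for its high level in macrophages loaded with lipid.

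The 4 areas held 1256 to 2013 spots and between 23546025 (TN1) and 41335930 (HC) UMIs. The median depth per spot ran from 9487 UMIs in TN1 to 30808 in TN2, with 14480 in TN3 and 14616 in HC. The mitochondrial share was highest in TN1, the shallowest area, at 11.6%, against 5.9% in HC. Of 3573 distinct spot barcodes 2337 occurred in more than 1 area, as slide positions rather than shared cells. The 10 clusters of spots, made without the 4 genes, were named by marker lists. The ganglion region, led by sensory neuron genes, joined cluster 4 (149, 41, 97 and 673 spots in TN1, TN2, TN3 and HC) and cluster 10 (53, 324, 66 and 0 spots). Cluster 10 was led by Gal, Csrp3 and Vip, genes known to rise in injured sensory neurons, with none of the sensory neuron markers among its 10 leading genes, so values are also given for cluster 4 alone. The labels give the tissue of every sample as trigeminal neuralgia, and the areas also held spots led by blood and bone genes (97, 63, 189 and 517), central neurons (426, 130, 0 and 0) and central myelin (277, 123, 222 and 432). Fewer cells of a type and less RNA per cell cannot be told apart in such spots.

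Promoters of 3 of the 4 genes were matched in RefSeq sequences of build GRCr8, each with 250 bases before and 50 after the annotated start, and Lgals3 was not matched. They are shown because Gpnmb had the widest range between areas and Spp1 the narrowest. Capitals mark matches to 3 motifs searched on both strands: the AP-1 site TGANTCA, the site TCACNTGA bound by Mitf and Tfeb, and the Runx site AACCNCA. The lines give the strand of the gene, 5′ to 3′.
Gpnmb, chr4:79340878-79341177, plus strand: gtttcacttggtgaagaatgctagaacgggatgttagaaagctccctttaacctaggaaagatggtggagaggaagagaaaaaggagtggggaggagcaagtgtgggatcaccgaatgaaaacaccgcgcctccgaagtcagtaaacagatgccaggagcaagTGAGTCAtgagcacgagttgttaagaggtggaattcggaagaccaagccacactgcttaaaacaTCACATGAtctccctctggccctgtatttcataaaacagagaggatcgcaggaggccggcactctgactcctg
Spp1, chr14:5619755-5620054, minus strand: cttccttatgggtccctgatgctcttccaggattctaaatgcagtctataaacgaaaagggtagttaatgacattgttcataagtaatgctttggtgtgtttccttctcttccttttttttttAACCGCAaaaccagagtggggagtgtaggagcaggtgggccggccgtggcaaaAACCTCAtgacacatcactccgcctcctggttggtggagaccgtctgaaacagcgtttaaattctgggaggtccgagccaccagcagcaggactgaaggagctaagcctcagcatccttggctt
Cd44, chr3:109699375-109699674, minus strand: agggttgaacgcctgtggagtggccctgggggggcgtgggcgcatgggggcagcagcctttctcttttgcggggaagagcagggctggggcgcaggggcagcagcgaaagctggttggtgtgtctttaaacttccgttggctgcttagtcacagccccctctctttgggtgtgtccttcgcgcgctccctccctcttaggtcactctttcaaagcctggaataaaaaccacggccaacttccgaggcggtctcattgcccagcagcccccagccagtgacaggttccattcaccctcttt

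The Gpnmb window held TGAGTCA, which begins 87 bases before the start, and TCACATGA, which begins 23 bases before it. The Spp1 window held AACCGCA 127 bases and AACCTCA 74 bases before the start, and no match to the other motifs. The Cd44 window matched none of them. Among 33469 promoters of the same length, 7.33% held TGANTCA, 3.93% held TCACNTGA on either strand and 15.3% held AACCNCA on either strand. A match describes these letters only, and binding was not measured.

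Spp1 was higher in each TN area than in HC, by 1.68 to 2.24 times. Its level over all spots, as UMIs scaled by TMM to a common library size (normalized CPM), was 1031, 1369 and 1106 in TN1, TN2 and TN3, and 612 in HC. These rest on 24509, 55053, 35487 and 24241 UMIs, of which the HC sum has an exact 95% Poisson interval of 23937 to 24548. The 3 TN areas lay close together and none reached down to HC, with a mean log2 ratio of TN to HC of 0.92 ± 0.21 (SD, n = 3). All intervals given here cover counting error only.

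Cd44 was 1.32 times the HC level in TN1, and 3.43 and 3.28 times in TN2 and TN3. It reached 29.9, 77.4 and 74.0 normalized CPM in the TN areas against 22.6 in HC, from 711, 3112, 2376 and 895 UMIs. TN2 and TN3 stood together above TN1, by 2.59 and 2.48 times. The mean log2 ratio of TN to HC was 1.30 ± 0.77 (SD, n = 3).

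Lgals3 was also higher in TN2 and TN3 than in TN1, which was close to HC. The TN areas held 223, 568 and 649 normalized CPM and HC held 201, on 5295, 22853, 20840 and 7962 UMIs. The TN1 value was 1.11 times that of HC, while TN2 and TN3 stood at 2.83 and 3.23 times. The mean log2 ratio was 1.11 ± 0.84 (SD, n = 3).

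Gpnmb had the widest range. Levels of 15.6, 225 and 273 normalized CPM in the TN areas stood against 8.63 in HC, from 372, 9044, 8770 and 342 UMIs. Against HC this was 1.81 times for TN1, but 26.1 and 31.7 times for TN2 and TN3. TN2 and TN3 exceeded TN1 by 14.4 and 17.5 times, so that the spread within TN was wide, with a mean log2 ratio of 3.52 ± 2.31 (SD, n = 3). Without TN1 the mean was 4.84. The UMI sums of TN1 and HC have exact 95% Poisson intervals of 335 to 412 and 307 to 380. These are raw sums from areas of 23546025 and 41335930 UMIs, so their overlap is not an overlap of levels.

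**Figure D1:**
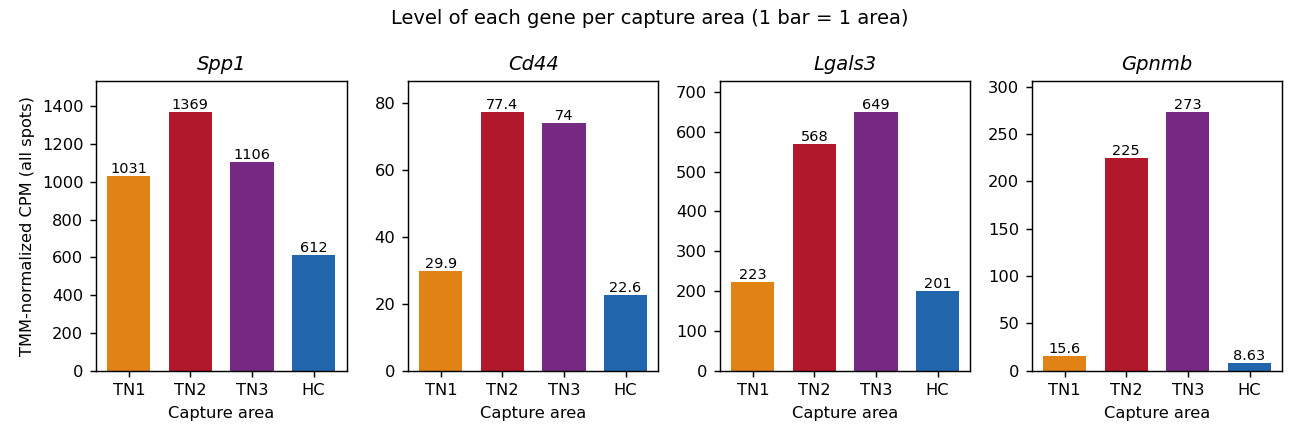
Normalized CPM of each gene over all spots (vertical axes from 0, a scale per gene), with 1 bar per capture area. HC is the lowest bar for each gene. TN1 stands nearer to HC than to TN2 and TN3 for Cd44 (29.9 against 22.6) and Lgals3 (223 against 201). The same holds for Gpnmb (15.6 against 8.63), although TN1 is 1.81 times HC there.

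In each TN area, then, all 4 genes exceeded HC. The same held for 28.7% of the 14902 genes tested over all spots, and 30.5% were lower in all 3, so the order alone does not set these genes apart. Other cell types moved with the same areas. Of 14 macrophage markers, 13 were higher in every TN area than in HC and 1 (Cd163) was lower, none was at 0, and their summed level was 851, 2153 and 2603 CPM in the TN areas and 449 in HC. The 7 connective tissue genes, 6 of them above HC in every TN area and none at 0, summed to 2006, 5834, 5648 and 1467 CPM. Bone-resorbing osteoclasts share genes with such macrophages. The 7 osteoclast genes, 2 of them above HC in every TN area and 0 below, summed to 27.5, 129, 136 and 19.6 CPM. Ocstamp was at 0 in 3 areas and Calcr at 0 in 1. The 6 bone-forming osteoblast genes summed to 81.1, 100, 74.8 and 209 CPM, of which Bglap held 48.1, 36.1, 35.5 and 147. Of these 6 genes 3 were below HC in every TN area and 1 was above (Sp7, with 1 UMI in each area). Sensory neuron genes, of which 8 of 9 were below HC in every TN area, summed to 4326, 4016, 2876 and 6184 CPM. Nerve injury genes, 9 of 10 of them above HC in every TN area, summed to 977, 1942, 1091 and 518 CPM. Peripheral myelin genes, 5 of 8 above, summed to 26818, 21821, 35047 and 19804 CPM. No gene of these 3 lists was at 0. The part of these cells in the levels of the 4 genes was not tested.

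The share of spots with a UMI was compared after every spot was thinned to 2000 UMIs, and was then higher in each TN area than in HC for the genes other than Lgals3. The 1578, 1240, 1801 and 2004 thinned spots of TN1, TN2, TN3 and HC had a UMI of Spp1 in 68.4, 81.9, 74.1 and 54.9%. Without thinning its shares were 93.8, 98.1, 89.9 and 92.3%, with no gap between the groups. Cd44 was found in 4.44, 14.4, 12.6 and 3.44% of thinned spots in the same order, and in 23.5, 72.5, 53.2 and 29.8% without thinning. For Lgals3 the thinned shares were 26.2, 61.4, 64.6 and 26.9%, so TN1 did not exceed HC, and the unthinned ones 63.5, 94.9, 88.9 and 76.9%. Gpnmb was found in 2.92, 32.2, 36.4 and 1.65% of thinned spots, with exact binomial intervals of 2.14 to 3.87% in TN1 and 1.14 to 2.30% in HC that overlap, and in 17.5, 88.1, 75.6 and 14.1% without thinning. In the central neuron spots of TN1, the region where the levels of Cd44 and Gpnmb were lowest in that area, the thinned shares were 1.17 and 1.64%, at a median of 12572 UMIs per spot before thinning against 9487 over the whole area. The HC share of Gpnmb was thus at this low share.

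Spots with the receptor Cd44 held its ligand at close to the share of all spots in the TN areas. In HC the share was higher, but it rests on 43 of 69 spots, and its counting error was not measured. Of the 178 thinned TN2 spots with Cd44, 80.3% also had Spp1, against 81.9% of all TN2 spots. In TN3 these values were 74.9% of 227 spots against 74.1%, in TN1 70.0% of 70 against 68.4%, and in HC 62.3% of 69 against 54.9%. Spots with Gpnmb held Lgals3 above the share of all spots in TN2 and TN3. In TN1 it was also higher, but on 16 of 46 spots, too few to tell it from counting error. Lgals3 was present in 34.8% of the 46 Gpnmb spots of TN1 against 26.2% of all its spots, and in HC in 24.2% of 33 against 26.9%. It was present in 69.7% of the 399 Gpnmb spots of TN2 against 61.4% of all spots, and in 73.9% of the 655 Gpnmb spots of TN3 against 64.6%. Both genes occurred together in 22.4% of spots in TN2 and 26.9% in TN3, but in 1.01% in TN1 and 0.399% in HC. Cd44 and Gpnmb occurred together in 68 spots of TN2, 90 of TN3 and 3 of TN1. In HC this was 0 of 2004 spots, where 69 spots had Cd44 and 33 had Gpnmb. Cd44 was in 6.52, 17.0 and 13.7% of the Gpnmb spots of TN1, TN2 and TN3, against 4.44, 14.4 and 12.6% of all spots. With Cd44 in 3.44% of all HC spots, the 33 Gpnmb spots are too few to show an absence.

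The regions separated Spp1 from the other 3 genes. Spp1 was highest in the ganglion region and peripheral nerve, and lowest in central myelin. In CPM without further scaling, cluster 10 of the ganglion region held 1803, 2057 and 1925 in the TN areas. The whole ganglion region held 1348, 2026 and 1613 in the TN areas and 695 in HC, all of the latter in cluster 4. Peripheral myelin spots held 1387 in TN1 and 1187 in TN3, the areas with 20 or more such spots. Central myelin had 307, 413 and 240 in the TN areas and 147 in HC. In order of the mean over areas, cluster 10 (1929 ± 127, SD, n = 3) was followed by cluster 4 (1295 ± 487, n = 4), peripheral myelin (1287 ± 142, n = 2) and cluster 9 (1199 ± 526, n = 4), and these last 3 differed from each other by less than their SD. Some regions were absent from HC, so their means rest on TN areas alone.

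Central neuron spots showed how far Spp1 and the others parted. They held 633 (TN1) and 1310 CPM (TN2) of Spp1, while their Cd44 (7.41 and 14.5), Lgals3 (55.7 and 86.2) and Gpnmb (9.52 and 38.3) stood at or near the bottom of each gene's own order. Within TN1, 60.6% of such thinned spots had a UMI of Spp1, and 9.39% had one of Lgals3.

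Lgals3 was highest in the astrocyte-rich spots of TN2 (1490 CPM) and TN3 (1743 CPM). The next regions were cluster 2, a mixed cluster of connective tissue and peripheral myelin genes found only in TN2 and TN3 apart from 1 spot of TN1 (692 and 766), and connective tissue (660 and 720). Cluster 2 and connective tissue differed by less than their SD (729 ± 52.1 and 690 ± 42.9, n = 2), and the astrocyte spots exceeded both by more than 2 times. In central myelin Lgals3 was 89.0 CPM in HC and 447 in TN2. Astrocyte spots numbered 5 in TN1 and 2 in HC, so no level was taken there. In the score used to name clusters, macrophage genes came second in the astrocyte cluster (1.448 against 2.357 for astrocyte genes). They also came second in the connective tissue cluster (0.939 against 2.41 for connective tissue genes). Which cells of these spots held Lgals3, Gpnmb or Cd44 was not tested.

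By its mean over areas Gpnmb was highest in connective tissue, with 535 CPM in TN2 and 851 in TN3. Astrocyte spots (586 and 546), which were above connective tissue in TN2, and cluster 2 (262 and 391) followed. The first pair of means, 693 ± 223 and 566 ± 28.3, differed by less than the larger SD. TN1 stayed low everywhere, from 9.52 CPM in central neuron spots to 38.8 in peripheral myelin. In HC it ran from 6.51 CPM in blood and bone spots to 11.54 in central myelin. Cd44 was highest in cluster 2 (93.0 in TN2 and 105 in TN3), astrocyte spots (92.2 and 90.6) and connective tissue (91.1 and 78.7), of which the astrocyte spots differed from either neighbour by less than the larger SD, whereas cluster 2 (98.9 ± 8.34, SD, n = 2) and connective tissue (84.9 ± 8.81) differed by more. Cluster 10 came next at 50.04, 91.8 and 88.1 in the TN areas.

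**Figure D2:**
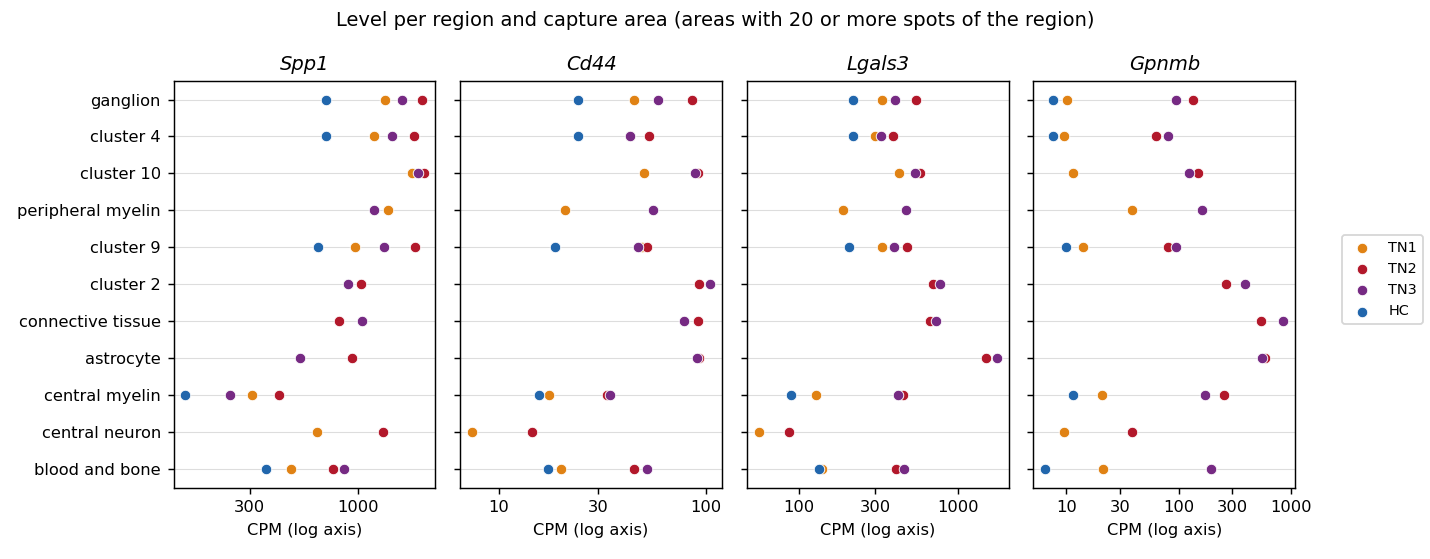
CPM (horizontal log axes) of each gene per region, with 1 point per capture area that had 20 or more spots of that region. The ganglion region joins clusters 4 and 10. Spp1 peaks in cluster 10 (1803 to 2057 CPM) and Lgals3 in astrocyte spots (1490 and 1743 CPM). Gpnmb has its highest mean in connective tissue (535 CPM in TN2 and 851 in TN3), though in TN2 astrocyte spots are higher (586). Macrophage genes were the second-scoring list of the astrocyte and connective tissue clusters.

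Where the UMIs lay followed from these levels and from how large each region was. The ganglion region gave 51.9, 57.6, 31.1 and 75.1% of the Spp1 UMIs in TN1, TN2, TN3 and HC, against 40.1, 40.4, 21.2 and 63.4% of all UMIs, so Spp1 exceeded the region's share in each area. For Gpnmb the same region gave 25.5, 23.2, 7.41 and 58.2%, below its share of all UMIs in each area. Connective tissue spots gave 30.5% of the Gpnmb UMIs of TN2 with 13.3% of all UMIs. Astrocyte spots gave 20.6% of the Lgals3 UMIs of TN3 with 7.63% of all UMIs.

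Within regions present in all areas, each gene was again higher in each TN area than in HC. In the ganglion region Spp1 stood at 1342, 1977 and 1610 normalized CPM in the TN areas and 719 in HC. Cd44 was at 44.6, 83.7, 58.6 and 25.0, and Lgals3 at 332, 533, 401 and 227. TN1 was again the lowest TN area for each, yet for these 3 genes it stood further above HC than it did over all spots, with log2 ratios of 0.90, 0.84 and 0.55. Gpnmb was at 10.0, 131, 94.8 and 7.86 in that region, a log2 ratio of 0.35 in TN1 against 4.06 in TN2 and 3.59 in TN3. In the ganglion region 27.6% of the 12832 genes tested exceeded HC in each of the 3 TN areas and 29.3% fell short of it. For cluster 4 alone and the regions outside the ganglion this share was not computed. The order there thus cannot be set against that of other genes.

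With cluster 4 alone the mean log2 ratios in the ganglion were 1.03 ± 0.31 for Spp1, 0.89 ± 0.16 for Cd44, 0.57 ± 0.18 for Lgals3 and 2.21 ± 1.67 for Gpnmb (SD, n = 3). With cluster 10 included they were 1.17 ± 0.28, 1.27 ± 0.45, 0.87 ± 0.34 and 2.67 ± 2.02. The values for cluster 4 were thus smaller for each gene and kept their sign in each TN area. Macrophage markers in cluster 4 summed to 531, 751 and 703 CPM in the TN areas and 269 in HC, and nerve injury genes to 1289, 1577 and 1186 against 621. Sensory neuron genes there were at 7579, 10167 and 6785 CPM against 7682. Their part in the ratios was not tested.

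Outside the ganglion region, Gpnmb again had the highest mean ratio. In central myelin the mean log2 ratios were 1.03 ± 0.37 for Spp1, 0.73 ± 0.57 for Cd44, 1.63 ± 1.04 for Lgals3 and 2.99 ± 1.95 for Gpnmb, and Cd44 in TN1 was only 0.08 above HC. Macrophage markers summed to 1406, 2060 and 2106 CPM there against 1233 in HC. In blood and bone spots the ratios were 0.89 ± 0.45, 1.05 ± 0.74, 1.13 ± 0.94 and 3.82 ± 1.81, although in 97, 63 and 189 TN spots against 517 of HC. In cluster 9, spots with both Schwann cell myelin and sensory neuron genes, they were 1.02 ± 0.46, 1.34 ± 0.08, 0.88 ± 0.25 and 2.19 ± 1.5. For Cd44 in cluster 9, TN1 (49.5 normalized CPM) lay between TN2 (51.3) and TN3 (46.2), against 19.4 in HC. These values rest on 126, 40, 200 and 108 UMIs in TN1, TN2, TN3 and HC, with 28 spots in TN2. The SD of 0.08 does not measure that counting error. Gpnmb had 36, 61, 401 and 57 UMIs there. In blood and bone spots Cd44 had 14, 17, 48 and 69 UMIs and Gpnmb 15, 73, 179 and 26.

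**Figure D3:**
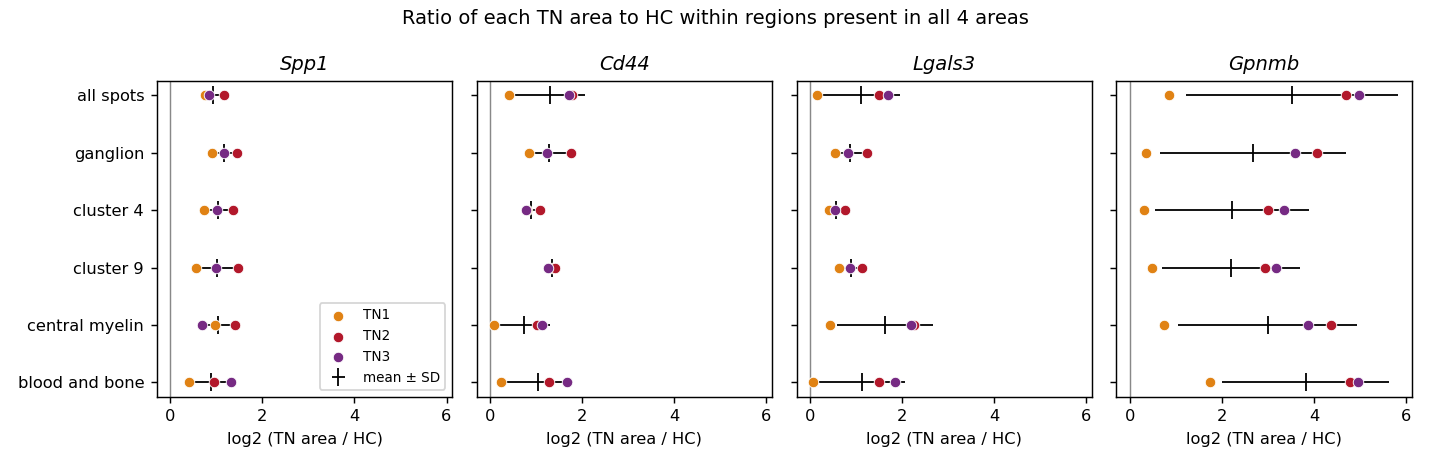
Log2 ratio of each TN area to HC (horizontal axes, the line at 0 is equality) over all spots and within the regions that all areas share, with points for TN1, TN2 and TN3 and a bar for their mean ± SD (n = 3). Every point lies right of 0, and the TN1 point of Gpnmb lies between 0.30 and 1.74 while those of TN2 and TN3 lie between 2.94 and 4.98. The share of all genes above HC in each TN area was taken over all spots (28.7%) and in the ganglion region (27.6%) only.

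Over the spots of an area, the genes kept different company. Spearman correlations of UMIs scaled to the depth of each spot are given as a description over 1587, 1256, 1917 and 2013 spots, which share a library and differ in depth. Gpnmb went with the summed macrophage genes in TN2 (0.68) and TN3 (0.59), at 0.07 in TN1 and −0.07 in HC. Lgals3 behaved alike, with 0.51 in TN2 and 0.53 in TN3 against 0.02 in TN1 and −0.30 in HC. Lgals3 and Gpnmb correlated with each other at 0.51 in both TN2 and TN3, and at 0.17 in TN1 and 0.11 in HC. Cd44 correlated with the macrophage genes at −0.01, 0.25, 0.22 and −0.18, and with Lgals3 at 0.30, 0.35, 0.34 and 0.16. The thinned spots gave lower values, at 0.36 and 0.33 for Gpnmb and 0.19 and 0.29 for Lgals3 with macrophage genes in TN2 and TN3. Lgals3 with Gpnmb fell to 0.13 and 0.20 there, and Cd44 with Lgals3 to 0.07, 0.11 and 0.07 in the TN areas and 0.01 in HC.

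Spp1 had no positive correlation with the macrophage genes over all spots. Its correlation with them was −0.06, −0.19 and −0.16 in the TN areas and −0.45 in HC. With the sensory neuron genes it was 0.16, 0.54, 0.32 and 0.52, and with the large-fibre neuron genes, which mark thick myelinated sensory neurons, −0.02, 0.60, 0.39 and 0.66. Peripheral myelin genes gave 0.51, 0.16, 0.47 and 0.58, and astrocyte genes −0.62, −0.44, −0.50 and −0.60. Spp1 and its receptor Cd44 correlated weakly at 0.19, 0.11, 0.14 and 0.15, and after thinning at 0.00 in the TN areas and 0.03 in HC. The value of Spp1 also went with depth, at 0.34 to 0.43 with the total UMIs of a spot, as did that of Cd44 at 0.33 to 0.43. The marker lists are summed UMIs, so their abundant genes weigh most. Nefh held 2458, 1541, 1411 and 4462 CPM of the large-fibre list's 2914, 1859, 1546 and 4804 CPM in TN1, TN2, TN3 and HC. Runx3 of that list had 0 UMIs in TN1 and HC. Prph held 2354, 2359, 1374 and 3002 of the 4326, 4016, 2876 and 6184 CPM of the sensory neuron list.

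Among ganglion spots alone the neuron lists parted. The sensory neuron list holds Prph, its most abundant gene, and pain-neuron genes such as Calca, Tac1 and Scn10a. With that list Spp1 was then at −0.14, −0.13 and −0.51 in the TN areas and −0.42 in HC. With the non-peptidergic list it was −0.39, −0.21, −0.53 and −0.36. With the large-fibre list it stayed positive in TN2 (0.13), TN3 (0.38) and HC (0.51), and was −0.02 in TN1. Lgals3 was negative with the large-fibre list in each area, at −0.53, −0.48, −0.65 and −0.29, and so was Cd44 at −0.45, −0.30, −0.45 and −0.06. With the nerve injury genes Lgals3 was at 0.57, 0.26, 0.62 and 0.17 in these spots. Spp1 with macrophage genes was at 0.32 in TN1, unlike over all its spots, and at 0.07, 0.10 and −0.07 in the other areas.

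**Figure D4:**
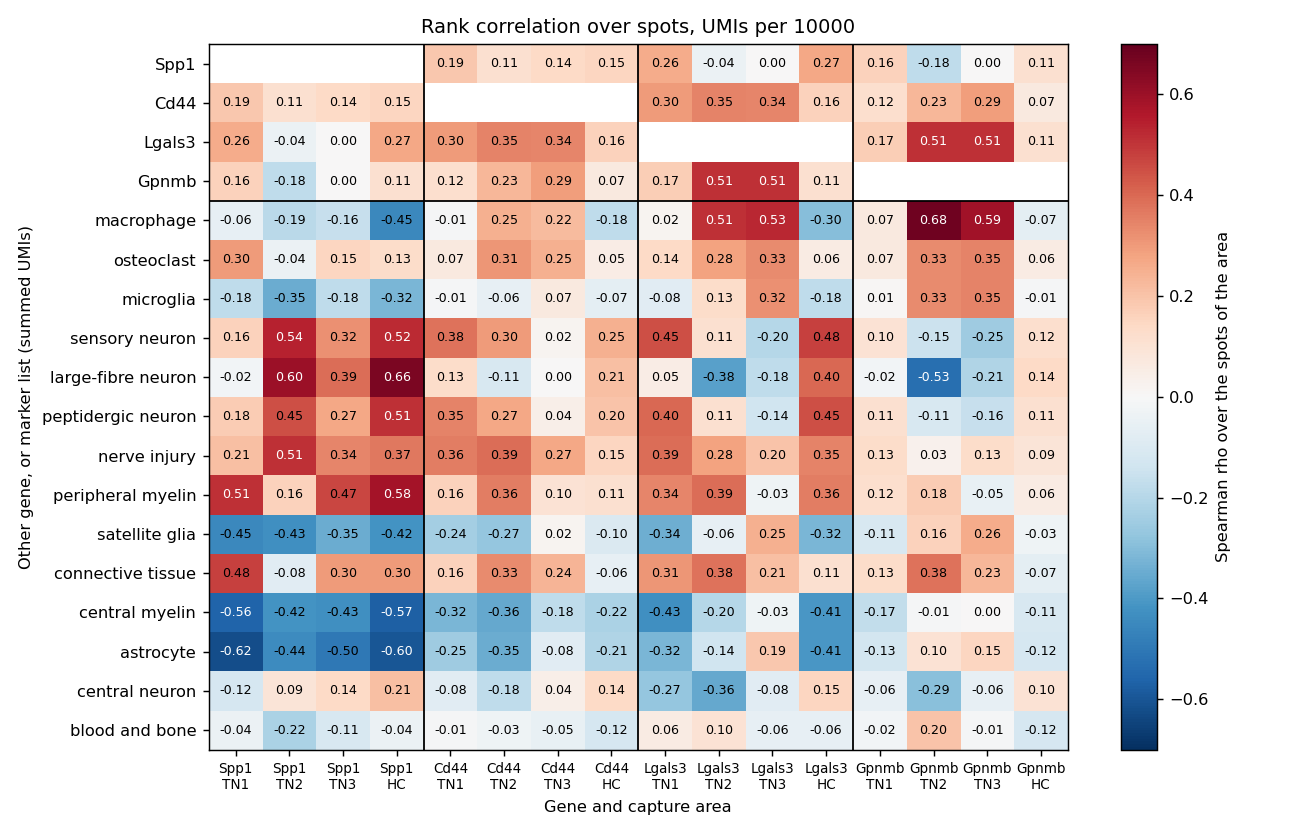
Spearman correlation over the spots of each area between each gene (columns, 4 areas each) and the other 3 genes or the summed UMIs of a marker list (rows), with the colour scale from −0.7 to 0.7. Gpnmb and Lgals3 are red with macrophage genes in TN2 and TN3 only (0.51 to 0.68), and Spp1 is blue with astrocyte genes in each area (−0.44 to −0.62).

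The spots of each area were also split into 4 equal groups by their share of macrophage UMIs. This restates the correlations above, over the same spots and lists, and adds no separate support. From the lowest to the highest group Gpnmb went from 67.5 to 534 CPM in TN2 and from 85.0 to 578 in TN3, that is 7.90 and 6.80 times. In TN1 it went from 9.66 to 34.6, with most of the step in the highest group, and in HC from 7.70 to 10.51. Lgals3 went from 359 to 768 in TN2 and from 368 to 1030 in TN3, stayed level in TN1 (212 and 217), and in HC went the other way from 215 to 115. The groups are not matched between areas, since macrophage genes summed to 732 and 749 CPM in the lowest groups of TN2 and TN3, above the 3 lower groups of HC (162, 293 and 519 CPM). Spp1 in the highest group was 0.727 times its lowest in TN2, 0.610 times in TN3 and 0.368 times in HC. These groups also differ in region, which was not held fixed. With the spots ranked instead by their share of sensory neuron UMIs, Spp1 in the highest group was 1.43, 1.97 and 1.88 times its lowest in the TN areas and 3.42 times in HC. In HC the rise was not steady, with 745 and 750 CPM in the middle groups and 555 in the highest. Gpnmb in the highest group was lower, at 0.579, 0.440 and 0.260 times in the TN areas and 0.696 times in HC. Its rank correlation with these genes over spots was 0.10, −0.15 and −0.25 in the TN areas and 0.12 in HC. The opposite direction thus held by both measures in TN2 and TN3 only. For Lgals3 the direction depended on the area, with 3.55 times in TN1 and 2.59 times in HC, but 1.07 times in TN2 and 0.4998 times in TN3. Cd44 was at 3.41, 1.55 and 0.735 times in the TN areas and 1.62 times in HC.

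**Figure D5:**
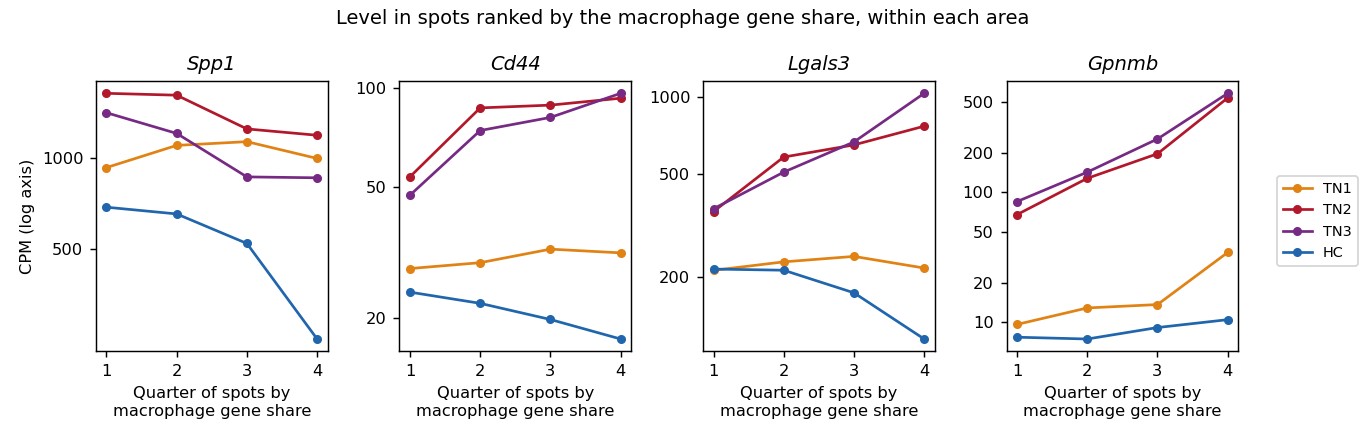
CPM (vertical log axes) of each gene in spots ranked by their share of macrophage UMIs, in 4 equal groups from lowest (1) to highest (4) within each area. Gpnmb climbs in TN2 (67.5 to 534) and TN3 (85.0 to 578), Lgals3 climbs there and descends in HC (215 to 115), and Spp1 descends in HC (689 to 253).

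The genes most like each member were sought among 7835 genes with a UMI in 10% or more of the spots of every area, by the mean over the 4 areas of Pearson's r of log1p values over spots. For Spp1 they were Sfrp5 (0.48), Tubb5, Tspan17, Lgals1 (each 0.47) and S100a10 (0.46), and Sfrp5 kept between 0.45 and 0.53 in every area. For Lgals3 they were Vim (0.46), Ctsb (0.44), Apoe (0.43), Lgals1 (0.41) and S100a4 (0.40). Vim encodes an intermediate filament, and it stood at 1126, 4949 and 5839 normalized CPM in the TN areas and 687 in HC. For Gpnmb the list was Ftl1 (0.30), Lyz2, C1qa, Tyrobp and Fcer1g (each 0.29), of which the last 4 are phagocyte genes. Their likeness rested on TN2 and TN3, as with Lyz2 at 0.47 and 0.51 against 0.15 in TN1 and 0.04 in HC. For Cd44 the highest were Vim, Ldha and AABR07007068.1 (each 0.26), then Lgals3 and Lgals1 (each 0.25).

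The 8 lists of partner genes asked whether ligands, receptors and relatives of the 4 genes differed between TN and HC. Of their 67 genes 58 were tested over all spots with edgeR's quasi-likelihood test on UMIs summed per area, and none passed an adjusted p of 0.05, as was the case for 0.0% of all 14902 genes (the smallest adjusted p was 0.556). At an unadjusted p under 0.05, 12 were higher and 3 lower, against 3.76% and 4.77% of all genes. DESeq2 called 3 of them higher and 0 lower, against 0.852% and 0.208% of all genes. In the ganglion region none of 52 passed, again as 0.0% of all genes, while 12 were higher and 0 lower at an unadjusted p under 0.05 (4.65% and 4.48% of all genes). The smallest adjusted p of a listed gene there was 0.305. DESeq2 called 4 higher and 0 lower there (0.748% and 0.171% of all genes). The median log2 fold change was 0.42 over the lists and 0.06 over all genes. The edgeR test had 2 residual degrees of freedom and took HC to vary like TN. How many genes this test called depended on whether TN1 was included, as given in the closing section.

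Among the integrin receptors of osteopontin, 4 of 8 tested were above HC in all 3 TN areas and 1 below. Over all genes these shares were 28.7% and 30.5%, and edgeR called none of the receptors. Itgb1, the common beta chain and the list's most abundant gene, was at 245, 392 and 358 normalized CPM in the TN areas and 266 in HC, a range that spans HC. Itgb8 was at 4.21, 5.05 and 9.47 against 1.26 in HC, a log2 fold change of 2.30 (edgeR adjusted p = 0.556, DESeq2 adjusted p = 0.0469). Itgb6, an epithelial beta chain, was lower at 6.22, 2.46 and 4.05 against 15.1, a log2 fold change of −1.84 (edgeR adjusted p = 0.556).

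Of the proteases that cut osteopontin, 4 of 5 tested were above HC in all 3 TN areas and none below, where 28.7% of all genes were above, and none was called by edgeR or DESeq2 over all spots. Mmp12, the macrophage elastase, had 7, 751 and 472 UMIs in the TN areas and 1 in HC. Against that single UMI the ratio in TN1 was 11.7 with an exact interval of 1.5 to 526 from counting alone, and in TN2 it was 740 with an interval of 132 to 29300. Mmp14, a membrane-bound protease, was at 9.63, 8.86 and 10.2 normalized CPM in the TN areas and 3.69 in HC, with TN1 level with the others (log2 fold change 1.37, edgeR adjusted p = 0.556). Among bone and tooth phosphoproteins related to osteopontin, 2 of 4 could be tested. Ibsp, bone sialoprotein, was lower in all 3 TN areas, at 3.07, 8.48 and 4.86 against 14.7 in HC (log2 fold change −1.42, edgeR adjusted p = 0.556). Without the blood and bone spots, which numbered 517 in HC and 63 to 189 in the TN areas, its log2 fold change was −0.57.

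Of the 12 genes of hyaluronan, the ligand of Cd44, 5 were above HC in all 3 TN areas and 3 below, counts near the 28.7% and 30.5% of all genes. Cemip, which takes part in breaking hyaluronan down, was at 22.5, 124 and 102 normalized CPM in the TN areas and 3.89 in HC. Its log2 fold change was 4.42 (edgeR adjusted p = 0.556, DESeq2 adjusted p = 6e-05), and in the ganglion region 3.08 (DESeq2 adjusted p = 0.00177). Tnfaip6, which binds and modifies hyaluronan, was at 4.71, 7.01 and 6.95 against 3.08. Among the linkers from Cd44 to the cytoskeleton, Ezr was at 21.8, 58.2 and 66.4 against 20.9, with TN1 near HC, whereas Msn, the most abundant, was at 152, 219 and 214 against 221.

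Of the other galectins and the galectin-3 binding partner Lgals3bp, 8 were tested, with a median log2 fold change of −0.23. Against 28.7% and 30.5% of all genes, 1 was above HC in all 3 TN areas and 4 were below. The one above was Lgals2, named after its values were seen, at 1.30, 1.14 and 2.03 normalized CPM against 0.278 in HC (log2 fold change 2.41, edgeR adjusted p = 0.556). Lgals1, the most abundant, was at 1282, 1927 and 1811 normalized CPM in the TN areas and 1566 in HC, on both sides of HC. Lgals9 was at 22.1, 17.0 and 18.2 against 28.5, and Lgals5 at 9.42, 0.970 and 10.8 against 12.5. These last are closely related copies in the rat, so reads may have been divided between them. Of the relatives and regulators of Gpnmb, 0 of 4 tested were above HC in all 3 TN areas and 2 were below. Over all genes these shares were 28.7% and 30.5%. Pmel, the closest relative of Gpnmb, was at 6.52, 5.52 and 4.83 against 10.8. Sdc4, a heparan sulfate proteoglycan that binds Gpnmb, was at 86.1, 163 and 181 against 88.0.

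Genes of lipid handling and lysosomes in phagocytes were the largest list. Of 16 tested, 9 were above HC in all 3 TN areas and 2 below, against 28.7% and 30.5% of all genes, with a median log2 fold change of 0.47 against 0.06. Clec7a, a receptor for fungal sugars, was at 4.92, 17.5 and 22.6 normalized CPM in the TN areas and 1.39 in HC (log2 fold change 3.43, edgeR adjusted p = 0.556, DESeq2 adjusted p = 0.00591). Trem2, a lipid-sensing receptor of macrophages, was at 14.8, 69.4 and 79.4 against 11.2, with TN1 near HC as for Lgals3. Ctsb, a lysosomal protease and the most abundant gene of the list, was lower in all 3 TN areas at 1707, 2137 and 1639 against 2309. In the ganglion region DESeq2 called Clec7a, Cemip, Mmp12 and Mmp3, the last named after its values were seen. Mmp3 was there at 3.80, 3.93 and 2.33 against 0.158 in HC (DESeq2 adjusted p = 0.00306, edgeR adjusted p = 0.305).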

How the data were processed

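The authors ran Space Ranger (1.2.0 in the file header, with STAR also named in the submitters' processing notes) and deposited UMI counts per gene for the spots under tissue, as whole numbers without normalization. The sources used here do not give the genome build, the annotation or any equalization of depth between areas. The number after each barcode gave the area, with the order taken from the series description.

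The 4 genes, the marker and partner lists and the tests were chosen with earlier results of these data known. Spots were clustered with SCTransform (sctransform 0.4.2, Seurat 5.3.0; 16088 genes), 30 principal components of 3000 variable genes without the 4 members, and K-means (10 clusters, 50 starts). A cluster was named by the marker list with the highest centred log2 (CPM plus 5), if it led the next by 0.25. No doublet caller was run on spots. UMIs were summed per area and, after TMM scaling and filterByExpr, given edgeR's quasi-likelihood test (edgeR 4.0.16, R 4.3.3, Benjamini-Hochberg at 0.05), with DESeq2 1.42.0 as an alternative. The study tested spots with MAST, but spots of an area are not replicates. The p-values measure only the spread between these areas, which may be technical in part. Alternatives were other size factors, no filter, each TN area left out, gene families or shallow spots left out, spots without blood and bone, other clusterings, thinning to 2000 UMIs and Pearson's r. Cluster 4 alone was added after the data were seen. Named partner genes were those called at 0.05, the most abundant of each list and up to 2 with the largest change at a mean of 5 CPM or more. Lists lacked Prrxl1 and Cntnap2, which were not found by symbol.

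On simulated counts with 200 changed genes, the test recovered 3.03% of those with a log2 change of 1, 53.6% at 2 and 73.8% at 3 over all spots, with 3 false calls among 14591 genes. In the ganglion region it recovered 16.7, 71.4 and 84.4%, with 3 false calls among 12532. In these simulated counts each gene varied on its own around the fitted trend, and HC varied like TN. No area was shifted across many genes at once, whereas the calls in the data depended on TN1. The recovered shares hold for that setting and do not give the power in these data.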

Additional observations from a re-analysis of the deposited data

How the results depend on the processing

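The mean log2 ratios of TN to HC stayed positive for the 4 genes under every alternative run and moved by less than their SD. Over all spots they ranged with TN areas left out from 0.82 to 1.01 for Spp1, 1.07 to 1.74 for Cd44, 0.84 to 1.59 for Lgals3 and 2.80 to 4.84 for Gpnmb, and in the ganglion region from 1.05 to 1.31, 1.06 to 1.48, 0.70 to 1.02 and 1.99 to 3.82. TN1 set the lower level of Gpnmb, Cd44 and Lgals3. The gap between TN and HC in shares of spots, in percentage points, was 1.70 for Spp1, 19.9 for Cd44, 5.47 for Lgals3 and 46.4 for Gpnmb without thinning, against 19.9, 7.02, 23.85 and 22.2 with it. Leaving out the blood and bone spots moved Ibsp from −1.42 to −0.57 (log2).

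Counts of genes past the threshold depended on the tool and on TN1. Over all spots DESeq2 called 127 genes higher and 31 lower, edgeR called 0 and 0, and with a TN area left out edgeR called 0 to 1186 higher and 0 to 985 lower, the largest without TN1. In the ganglion region DESeq2 called 96 and 22, no filter on low counts 14 and 6, log-normalised clusters 2 and 3, cluster 4 alone 2 and 3, and leaving out a TN area 0 to 652 higher and 0 to 361 lower. The 18 named partner genes were picked mostly for large changes or abundance in these data. Their calls without TN1 are therefore not read as a result about partners. The cause was not tested.

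Correlations depended most on depth and region. After thinning, the mean was 0.01 for Spp1 with Cd44, 0.06 for Cd44 with Lgals3, 0.02 for Cd44 with Gpnmb, 0.06 for Cd44 with sensory neuron genes and 0.09 for Lgals3 with Gpnmb. With Pearson's r Spp1 and Cd44 were at 0.10. In ganglion spots alone the sign turned for Spp1 with Cd44 (−0.01), with macrophage genes (0.10) and with sensory neuron genes (−0.30), and the means were −0.05 for Spp1 with Lgals3, 0.02 for Spp1 with peripheral myelin and 0.06 for Cd44 with Gpnmb. No paired analysis was possible because HC is a single area that pools animals which the barcodes do not tell apart. No label links it to a TN area. Cd44 and Gpnmb had the fewest UMIs of the 4 genes, with 711 and 372 in TN1 and 895 and 342 in HC.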
